A study of Mus musculus with 30 samples.

Results

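The genes described here are 10 genes that mark the endothelium of brain vessels and the blood-brain barrier: Cldn5, Cdh5, Pecam1, Flt1, Kdr, Tek, Slco1a4, Abcb1a, Ly6c1 and Itm2a. They were chosen by name as a gene group, with earlier results of these data known, and were found by symbol in the raw count tables of the subventricular zone (SVZ, the stem cell niche along the lateral ventricle) and of the neighbouring striatum. They are 10 of the 53278 genes of the SVZ table and 10 of the 50508 genes of the striatum table. All 10 passed the filter on low counts in both tissues, in which 16375 and 15419 genes were tested.

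Endothelial cells line every vessel, and in the brain their neighbours are sealed to each other by tight junctions, so that most molecules cross only through transporters in the cell membrane. Growth of these vessels is guided by vascular endothelial growth factor (VEGF) and by angiopoietins, which act on receptor tyrosine kinases of the endothelium, while Wnt ligands from neural cells maintain the barrier. The SVZ niche holds a dense plexus of such vessels, with which neural stem cells and their progeny are in contact.

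The study compared mice of strain C57Bl/6 with and without a transgene that expresses thymidine kinase (TK) from the second intron enhancer of Nestin, a gene of neural precursors. Ganciclovir (GCV) or phosphate-buffered saline (PBS) was given for 4 weeks from an implanted minipump, and GCV kills dividing cells that carry TK, so that endogenous neural precursor cells are ablated only in mice with both. SVZ and striatum of the same 15 mice were sequenced, each mouse giving 1 library of each tissue. The ablated group was 5 NestinTK+GCV+ mice (A1 to A5), and the controls were 3 NestinTK-GCV+ (G1 to G3) and 3 NestinTK-PBS+ mice (P1 to P3), which are littermates without the transgene, and 4 NestinTK+PBS+ mice (T1 to T4). Numbers within a group follow the order of deposit and rank nothing, and the labels give no age or sex. The study's methods name male and female mice for RNA extraction, without saying which library came from which sex. The enhancer is used to drive TK in neural precursors. All mice were perfused with saline before dissection. In bulk tissue, fewer endothelial cells and less RNA per endothelial cell cannot be told apart.

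The deposited values are raw read counts per gene, and levels are given as CPM, the reads of a gene scaled to 1 common library total with TMM factors. SVZ libraries were made with a whole-transcript kit (SMART-Seq v4) and held 8360810 to 21056005 counted reads, and striatum libraries were made with a 3′ end kit (QuantSeq) and held 2626962 to 4693441, so levels are compared between mice within a tissue and not between tissues. The SVZ libraries varied far more: the common biological coefficient of variation was 0.939 in the SVZ and 0.251 in the striatum. Of the 8 neuroblast markers listed, 7 were lower in ablated SVZ and 4 were called, against 1.59% of all tested genes. Dcx, 1 of the 4, held 15.5 to 26.1 CPM in ablated and 23.4 to 108.5 CPM in control mice. The labels name the SVZ samples as neural precursor cells, yet the 8 markers of striatal medium spiny neurons summed to 3210.5 to 10574 CPM over the 15 SVZ libraries, against 87.1 to 375 CPM for the neuroblast markers. In the SVZ libraries P1, P2 and T1, Ttr, an abundant choroid plexus gene, took up 4.49%, 9.88% and 9.83% of all reads, and under 1% elsewhere. GCV libraries carry the lower library numbers and PBS libraries the later ones, so treatment and order of numbering cannot be told apart. The mouse numbers begin with 34 or 40, and this series moves with the groups: 0 of 5 ablated, 1 of 3 NestinTK-GCV+, 1 of 4 NestinTK+PBS+ and 3 of 3 NestinTK-PBS+ mice are of series 34. The labels do not say what the series means.

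All 10 genes are annotated as protein coding in GENCODE vM21 on GRCm38, the assembly that the authors' mm10 alignment used, and lie on chromosomes 4, 5, 6, 8, 11, 15, 16 and X. For the receptors, Flt1 lies at chr5:147561604-147726011, minus strand, Kdr at chr5:75932827-75978458, minus strand and Tek at chr4:94739289-94874976, plus strand. The junction genes are Cldn5 at chr16:18776847-18778262, plus strand, Cdh5 at chr8:104101625-104144511, plus strand and Pecam1 at chr11:106654217-106750628, minus strand. The transporter genes are Slco1a4 at chr6:141805440-141856199, minus strand and Abcb1a at chr5:8660077-8748575, plus strand. Ly6c1 lies at chr15:75044018-75048830, minus strand and Itm2a at chrX:107397099-107403376, minus strand.

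The promoters of 4 genes are shown because these genes carry the differences described below: Flt1 and Slco1a4 had the lowest p-values of the 10 genes in the striatum, and Tek and Kdr had the highest fold changes in the ablated SVZ against pooled controls. Each is the RefSeq sequence of GRCm38.p6 from 250 bases before to 50 bases after the annotated start, written 5′ to 3′ on the strand of the gene. Capitals mark AGGAAG or its reverse complement, CTTCCT, a form of the site that ETS factors bind, a family that includes regulators of endothelial genes. The Flt1 promoter lies on the minus strand at chr5:147725962-147726261, that of Slco1a4 on the minus strand at chr6:141856171-141856470, that of Kdr on the minus strand at chr5:75978406-75978705 and that of Tek on the plus strand at chr4:94739039-94739338.
Flt1: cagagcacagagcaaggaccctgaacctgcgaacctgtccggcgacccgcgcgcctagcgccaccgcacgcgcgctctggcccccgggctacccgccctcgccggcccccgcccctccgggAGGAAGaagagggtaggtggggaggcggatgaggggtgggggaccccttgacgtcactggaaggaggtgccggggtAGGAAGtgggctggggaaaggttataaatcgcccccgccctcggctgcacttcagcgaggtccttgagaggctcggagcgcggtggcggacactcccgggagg
Slco1a4: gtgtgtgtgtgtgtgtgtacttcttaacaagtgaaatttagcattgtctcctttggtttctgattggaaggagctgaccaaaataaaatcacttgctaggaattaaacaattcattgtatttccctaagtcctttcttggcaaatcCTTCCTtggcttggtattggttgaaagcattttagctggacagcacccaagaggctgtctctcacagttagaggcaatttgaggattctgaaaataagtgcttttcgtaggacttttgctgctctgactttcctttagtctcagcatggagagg
Kdr: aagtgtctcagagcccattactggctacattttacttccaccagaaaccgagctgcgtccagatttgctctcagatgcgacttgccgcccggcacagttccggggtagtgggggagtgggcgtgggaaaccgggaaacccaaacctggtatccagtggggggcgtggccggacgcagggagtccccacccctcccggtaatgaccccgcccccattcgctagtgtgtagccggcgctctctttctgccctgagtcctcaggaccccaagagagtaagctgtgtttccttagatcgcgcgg
Tek: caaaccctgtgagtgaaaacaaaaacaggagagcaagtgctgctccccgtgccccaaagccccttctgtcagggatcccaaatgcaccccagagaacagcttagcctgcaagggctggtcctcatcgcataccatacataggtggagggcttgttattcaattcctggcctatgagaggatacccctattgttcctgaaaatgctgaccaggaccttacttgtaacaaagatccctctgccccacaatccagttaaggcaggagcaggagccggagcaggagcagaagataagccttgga
The Flt1 promoter was 70.7% G and C with 29 CG dinucleotides and held the 6 letters at 2 positions. The Slco1a4 promoter was 40.7% G and C with 1 CG dinucleotide and held them at 1 position. Those of Kdr (60.7% G and C) and Tek (52%) held none. A promoter sequence was at hand for 8 of the 10 genes, and 5 of the 8 held the letters on either strand at least once. So did 35.4% of the 32851 mouse promoters of the same length, whose median content of G and C was 52.7%. That share counts promoters, while the 5 of 8 counts genes. Ly6c1 held 3 matches in 1 promoter and 0 in another, and was counted as holding the letters. A match describes the sequence and is not a binding site.

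Within the SVZ controls, the levels of the 10 genes spanned a wide range once divided by exon length. Itm2a stood highest at 47.0 ± 15.2 CPM per kilobase (mean ± SD, n = 10 mice), followed by Cldn5 at 31.3 ± 17.2 and Ly6c1 at 23.1 ± 8.92, and these neighbours overlapped within their SDs. Slco1a4 and Flt1 came next at 5.12 ± 2.09 and 4.98 ± 0.901 CPM per kilobase. The lowest Ly6c1 value, 9.33, lay above the highest Slco1a4 value, 8.57. Flt1 and the next gene, Pecam1, were apart by more than their SDs, although the lowest Flt1 value, 3.36, was under the highest Pecam1 value, 3.47. Pecam1 (1.44 ± 1.12), Abcb1a (1.42 ± 0.929), Cdh5 (1.32 ± 0.899), Kdr (0.786 ± 0.814) and Tek (0.696 ± 0.502) formed the low end, and no pair of neighbours among these 5 was separated by its SD.

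In the SVZ of ablated mice, 8 of the 10 genes had a higher fitted level than in the pooled controls, but none was called at the study's thresholds, which ask for a nominal p of at most 0.01 together with a 2-fold difference. At those thresholds 1.59% of all tested genes were called. Flt1 was the 1 gene of 10 with an unadjusted p under 0.05, a limit that 9.81% of all genes passed. The median log2 fold change of the 10 genes was 0.54, against -0.027 over all tested genes, of which 48.1% had a positive value. The endothelial receptor and adhesion genes Tek, Kdr and Cdh5 and the transporter Abcb1a had the highest fold changes, and Cldn5 and Itm2a had values near or below 0.

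The receptors of the VEGF and angiopoietin pathways were measured over a wide spread of mice. Flt1 encodes VEGF receptor 1, which binds VEGF and is known mainly as a decoy that limits its signal. In the SVZ it stood at 50.8, 176, 103, 81.6 and 75.3 CPM in A1 to A5, 69.6, 51.1 and 83.7 in G1 to G3, 45.4, 63.2 and 67.7 in P1 to P3 and 67.2, 67.9, 83.8 and 72.3 in T1 to T4. A2 and A3 lay above every control, A1 lay below 9 of the 10, and the groups overlapped. The mean was 97.3 ± 47.8 CPM in ablated mice (SD, n = 5) and 67.2 ± 12.2 in the controls (n = 10). The log2 fold change was 0.53 (SE 0.23), with an unadjusted p of 0.033 and an adjusted p of 0.454 (edgeR's quasi-likelihood test, Benjamini-Hochberg adjustment over all tested genes). Without A2 it was 0.21 with an unadjusted p of 0.325, so that the value of Flt1 rested on this library.

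Kdr encodes VEGF receptor 2, the main signalling receptor of VEGF on endothelium. Its SVZ levels were 23.8, 9.62, 28.6, 16.8 and 12.1 CPM in A1 to A5, 0.0718, 8.48 and 3.41 in G1 to G3, 5.28, 24.8 and 1.65 in P1 to P3 and 9.49, 1.12, 4.38 and 12.3 in T1 to T4. The ablated mice were all at 9.62 CPM or above, 8 of the 10 controls were below that level, and the other controls were T4 at 12.3 and P2 at 24.8. The G1 value was a single read. Its log2 fold change was 1.35 (SE 0.74, unadjusted p = 0.0833, adjusted p = 0.583 by edgeR's quasi-likelihood test after Benjamini-Hochberg adjustment), and without P2, 1 of the 3 libraries rich in Ttr, it was 1.83.

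Tek encodes Tie2, the receptor of angiopoietins, which stabilizes vessels. It had few reads, from 1 to 189 per library: 4.68, 26.4, 10.9, 4.60 and 4.09 CPM in A1 to A5, 0.0718, 3.30 and 0.152 in G1 to G3, 3.13, 6.45 and 0.992 in P1 to P3 and 3.11, 3.57, 6.05 and 5.94 in T1 to T4. A2 and A3 lay above every control, and G1 and G3 held 1 and 2 reads. Ablated and control mice overlapped from 4.09 to 6.45 CPM. The fold change on the log2 scale was 1.62 (SE 0.83, unadjusted p = 0.064, adjusted p = 0.544 by the same test and adjustment in edgeR), and 0.89 without A2.

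Among junction and adhesion genes, Cdh5 encodes VE-cadherin, the cadherin of endothelial adherens junctions. Cdh5 levels in the SVZ were 4.56, 14.6, 11.9, 14.1 and 23.1 CPM in A1 to A5, 3.88, 1.98 and 0.152 in G1 to G3, 8.41, 13.2 and 3.09 in P1 to P3 and 5.62, 5.80, 8.76 and 4.68 in T1 to T4. Of the 5 ablated mice, 4 lay above 9 of the 10 controls, and A1 lay among the controls. G3 held 2 reads. Its mean was 13.7 ± 6.62 CPM (SD, n = 5) against 5.56 ± 3.78 (n = 10), with a log2 fold change of 1.29 (SE 0.66) and an unadjusted p of 0.064 (edgeR, adjusted p = 0.544 after Benjamini-Hochberg).

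Pecam1 encodes CD31, an adhesion molecule at endothelial contacts that some blood cells share. Its SVZ levels were 0.480, 28.9, 14.3, 15.3 and 7.06 CPM in A1 to A5, 5.03, 2.31 and 1.59 in G1 to G3, 21.6, 9.68 and 13.3 in P1 to P3 and 7.60, 1.49, 9.17 and 18.0 in T1 to T4. A1, with 4 reads, was the lowest of all 15 libraries while A2 was the highest. The log2 fold change, 0.55 (SE 0.73), was smaller than its error, and it was 0.057 without A2. Cldn5 encodes claudin-5, the main tight junction claudin of brain endothelium. Its means were 43.0 ± 17.6 CPM in ablated mice (SD, n = 5) and 44.4 ± 24.3 in controls (n = 10), over 22.6 to 67.8 and 6.52 to 88.6 CPM, and its log2 fold change was -0.046 with a 95% interval from -0.91 to 0.81.

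The 2 transporters differed in how far they were spread. Abcb1a encodes P-glycoprotein, the efflux pump that keeps many drugs out of the brain. The SVZ held 42.4, 5.16, 11.2, 8.98 and 24.5 CPM of it in A1 to A5, 5.53, 10.1 and 0.455 in G1 to G3, 1.07, 6.74 and 7.27 in P1 to P3 and 6.00, 12.9, 16.8 and 11.0 in T1 to T4. A1 and A5 lay above every control and the other 3 ablated mice within the controls. The log2 fold change was 1.24 (SE 0.65, unadjusted p = 0.0717, adjusted p = 0.557, edgeR with Benjamini-Hochberg adjustment) and 0.68 without A1. Slco1a4 encodes an organic anion transporter of the barrier. It ranged over 19.6 to 67.8 CPM in ablated and 16.9 to 55.0 in control mice, with a log2 fold change of 0.26 (SE 0.36). Ly6c1, a GPI-anchored surface protein used as a marker of brain endothelium, ranged over 23.1 to 67.7 and 15.6 to 70.2 CPM. Itm2a, a membrane protein used as another such marker, ranged over 46.4 to 80.2 and 53.9 to 152 CPM. Their log2 fold changes of 0.33 (SE 0.31) and -0.20 (SE 0.22) did not pass the test.

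**Figure D1:**
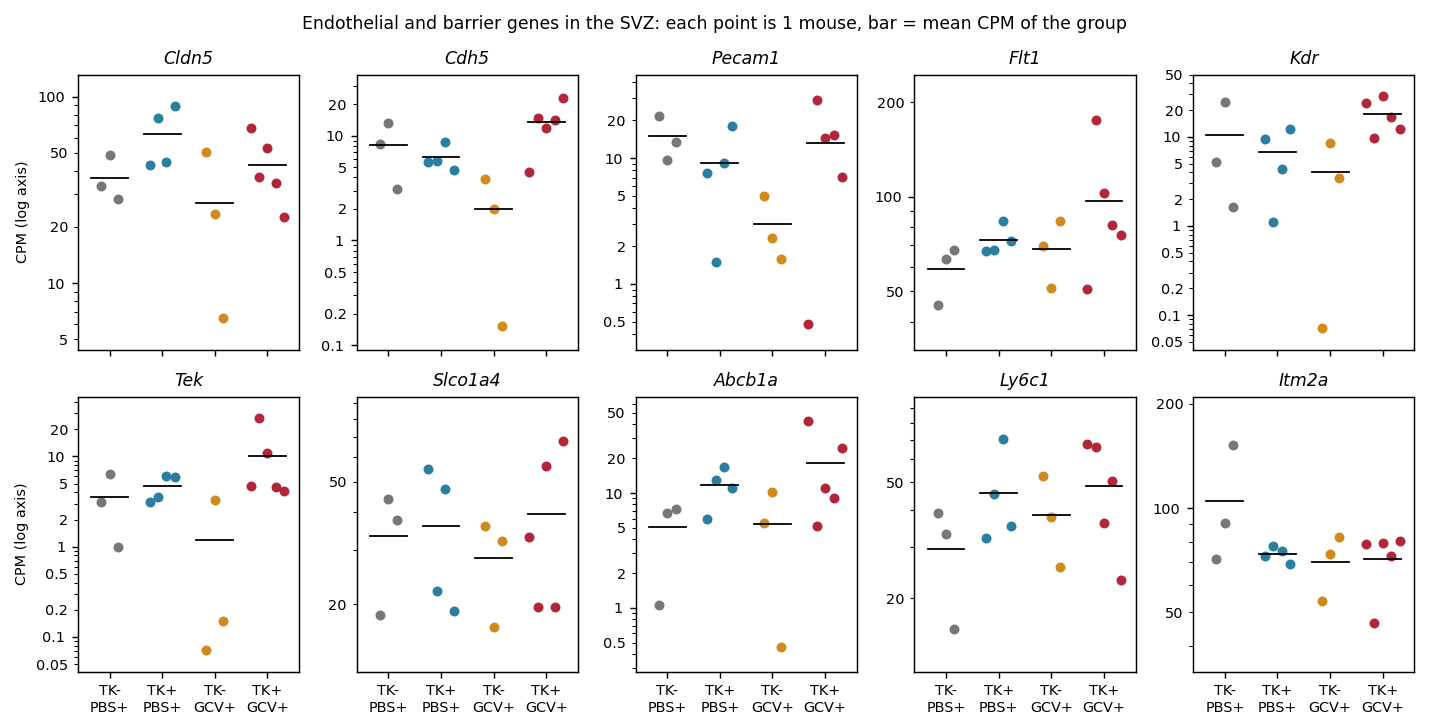
Level of each of the 10 genes in the SVZ, in CPM on log axes, by group of genotype and treatment. Each point is 1 mouse and each bar the mean of its group. Ablated mice (TK+GCV+) reach the highest Tek, Cdh5, Kdr and Abcb1a values, and the single lowest values of Tek, Kdr, Cdh5, Cldn5 and Abcb1a are in TK-GCV+ mice.

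Some copies of these genes could take or lend reads. Of the 50-base stretches of Ly6c1 transcripts, 32.8% occur also in Ly6a, Ly6c2 or Ly6i, so its counts are uncertain, and Ly6c2 itself held at most 1 read in a SVZ library. For Abcb1a the share was 22.5%, with Abcb1b, Abcb4 and Gm42686. Gm42686 overlaps 553 exonic bases of Abcb1a on the opposite strand, and whether reads were counted by strand is not given in the sources used here. Abcb1b held 0 to 75 reads in SVZ libraries and 3 to 19 in striatum libraries. Slco1a4 shared 1.61%, with 5 genes, Slco1a5 among them. Slco1a5 held 0 to 157 reads in SVZ libraries and 0 to 2 in striatum libraries, and the copies Slco1a1 and Slco1a6 had 0 reads in every library. The other 7 genes shared 1.54% or less.

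The groups were then compared one by one in the SVZ, in a fit with 4 group means, with 1 spread estimated over all 15 libraries. Against NestinTK-GCV+ mice, which had GCV but no transgene, all 10 genes had a higher fitted level in ablated mice, with a median log2 fold change of 1.23. None was called by edgeR, against 0.940% of all genes. By limma-voom 2 of the 10, Tek and Cdh5, were called, and in edgeR fits without A1, G1 or G2, 1 of the 10 was. The share of all genes called was not counted in these other fits, so their calls have no background to be read against. Tek and Cdh5, 2 of 10, had an unadjusted p under 0.05, against 7.45% of all genes. Tek was higher by 3.11 on the log2 scale (SE 1.33, unadjusted p = 0.0312) and Cdh5 by 2.76 (SE 1.00, unadjusted p = 0.0126). The Tek value ran from 2.37 without A2 to 6.39 without G2, and its unadjusted p was over 0.05 without A2, G1 or G3 (0.099 at most). Cdh5 ran from 2.21 to 3.68 over the same fits. Their adjusted p of 0.665 did not pass (edgeR's quasi-likelihood test, Benjamini-Hochberg). The 3 NestinTK-GCV+ libraries had 3, 1 and 2 of the 10 genes above that gene's median over all 15 libraries, and the ablated libraries 6 to 9. The other controls spanned both, with 3, 7 and 3 in P1 to P3 and 1, 4, 7 and 6 in T1 to T4. The summed level of the 10 genes was 229 to 277 CPM in NestinTK-GCV+, 318 to 430.2 in ablated, 247 to 340.4 in NestinTK-PBS+ and 302 to 366 in NestinTK+PBS+ mice.

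Against NestinTK+PBS+ mice, which carry the transgene but had no GCV, 8 of the 10 genes had a higher fitted level in ablated mice, at a median of 0.48 on the log2 scale. None passed either limit, which 1.19% and 7.13% of all genes did. The 2 genes that were not higher were Cldn5 (-0.56, SE 0.46) and Itm2a (-0.044, SE 0.25). The 4 highest Cldn5 levels were T4 at 88.6, T2 at 76.7, A1 at 67.8 and A3 at 53.0 CPM. GCV alone was compared in mice without the transgene: NestinTK-GCV+ against NestinTK-PBS+ mice gave 3 higher and 7 lower genes and a median log2 fold change of -0.51. Again none of the 10 passed either limit, which 1.06% and 7.65% of all genes did. Pecam1 came nearest, at -2.32 (SE 1.10, unadjusted p = 0.0506 by edgeR), with 5.03, 2.31 and 1.59 CPM against 21.6, 9.68 and 13.3 CPM. These ranges did not overlap, and the share of all genes separated in this way was not counted.

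The transgene alone, NestinTK+PBS+ against NestinTK-PBS+ mice, gave a median log2 fold change of 0.21 with 6 genes higher and 4 lower. No gene of the 10 passed either limit here, against 0.195% and 2.69% of all genes. The interaction of genotype and treatment, which tests whether the effect of GCV differed between mice with and without TK, had a median of 0.55. None was called (0.837% of all genes were), and Cdh5 alone had an unadjusted p under 0.05 (5.09% of all genes). The Cdh5 interaction was 3.17 on the log2 scale (SE 1.31, 95% interval 0.41 to 5.92, unadjusted p = 0.0265, adjusted p = 0.942 by edgeR with Benjamini-Hochberg adjustment). Its unadjusted p was over 0.05 without A5 or P2.

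Other measures moved with the groups in the SVZ, and their part in these values was not tested beyond the fits named here. Depth moved with them in both tissues. Striatum libraries held 2626962 to 3371033 counted reads in ablated and 2780471 to 4693441 in control mice. SVZ libraries held 8360810 to 9595103 in ablated and 8947137 to 21056005 in control mice. The SVZ counts of 1 or 2 reads for Tek, Kdr and Cdh5 were in G1 and G3, with totals of 13624259 and 12120182. The share of mitochondrial transcripts was 13.1% to 17.0% in ablated libraries and 6.69% to 15.2% in controls, and with this share as a covariate the median log2 fold change of the 10 genes was 0.69 and none had an unadjusted p under 0.05. All 9 choroid plexus markers were lower in ablated mice, summing to 18.5 to 256 CPM against 15.8 to 103893 CPM in controls. Without the 3 libraries rich in Ttr the median of the 10 genes was 0.66, and 2 of them had an unadjusted p under 0.05. The share of all genes at that limit was not counted in this fit or in the covariate fit. Of the 8 medium spiny neuron markers, 7 were higher in ablated mice, none at a p under 0.05, over 3210.5 to 10574 CPM in ablated and 4056 to 8807 CPM in control mice. Red cell transcripts, a sign of blood left in vessels, (5 genes, 2 higher and 3 lower, none past a p of 0.05) summed to 2.52 to 42.1 CPM in ablated and 2.20 to 27.4 CPM in control SVZ. Of the other cell types listed, oligodendrocyte genes had 0 higher and 6 lower, astrocyte genes 3 and 3, and microglial genes 3 and 2. Ependymal genes had 0 higher and 5 lower with 1 called, against 1.59% of all tested genes.

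In the striatum of ablated mice, 4 of the 10 genes had a higher and 6 a lower fitted level than in the pooled controls, with a median log2 fold change of -0.07 against 0.0037 over all tested genes. None was called, against 0.694% of all genes, and none had an unadjusted p under 0.05, against 10.5% of all genes. The 95% intervals of the log2 fold changes were within -0.83 and 0.51 for 9 of the 10 genes, the exception being Tek (-1.03 to 0.86). Among the 4 groups, the clearest values were those of Flt1 and Slco1a4 in mice without the transgene, where Flt1 was lower with GCV and Slco1a4 did not pass the adjusted limit.

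Flt1 in the striatum stood at 141, 139, 105, 116 and 123 CPM in A1 to A5, 110.1, 65.8 and 114 in G1 to G3, 189, 136 and 176 in P1 to P3 and 114, 117, 152 and 174 in T1 to T4. All 3 NestinTK-GCV+ mice lay below all 3 NestinTK-PBS+ mice, with G2 the lowest library of all. How many of all genes separated these groups in this way was not counted. The means were 96.7 ± 26.8 CPM against 167 ± 27.9 CPM (SD, n = 3 each). Flt1 was lower by a log2 fold change of -0.79 (SE 0.20, 95% interval -1.21 to -0.37), with an adjusted p of 0.0412 in edgeR's quasi-likelihood test after Benjamini-Hochberg adjustment. It was 1 of the 10 genes, and 317 of all tested genes, or 2.06%, passed that limit. The change was under 2-fold, so it was not called. In fits that each left out 1 mouse, its log2 fold change ran from -0.93 to -0.58 and its adjusted p from 0.0106 to 0.286, above 0.05 without any 1 of A1, A2, A3, A4, G1, G2, P1 or P3, which is 8 of 15 fits. It was 0.286 without G2. Other cell types moved in this contrast too, and their part in the Flt1 value was not tested. All 6 oligodendrocyte markers were lower in NestinTK-GCV+ mice (1 called, 2 at an adjusted p under 0.05 in edgeR with Benjamini-Hochberg), summing to 2081 to 2801 CPM against 2959 to 4448 CPM. All 5 ependymal markers were lower (2 called, 1 past that adjusted limit), at 11.5 to 17.7 CPM against 29.0 to 52.9 CPM. In this contrast 2.46% of all tested genes were called. Of the 27 tested barrier genes 20 were lower, while 14 of the 28 pan-endothelial genes were.

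Slco1a4 in the striatum stood at 54.6, 37.4, 51.1, 47.1 and 42.5 CPM in A1 to A5, 55.2, 39.5 and 57.1 in G1 to G3, 31.5, 31.0 and 36.5 in P1 to P3 and 42.0, 43.9, 39.2 and 51.2 in T1 to T4. The 3 NestinTK-PBS+ mice were the 3 lowest of the 15, and the share of all genes with such an order was not counted. NestinTK-GCV+ mice differed from these 3 mice by a log2 fold change of 0.62 (SE 0.19, unadjusted p = 0.00316, adjusted p = 0.084, edgeR with Benjamini-Hochberg). NestinTK+PBS+ mice differed from them by 0.42 (SE 0.18, unadjusted p = 0.028), and both contrasts share the same 3 mice. Its interaction of genotype and treatment was -0.54 (SE 0.24, unadjusted p = 0.0372, adjusted p = 0.298 by the same test and adjustment in edgeR).

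Tek was sparse in the striatum, with 1 to 27 reads per library: 3.52, 3.63, 5.92, 2.27 and 2.66 CPM in A1 to A5, 4.89, 6.76 and 4.01 in G1 to G3, 3.81, 0.218 and 1.94 in P1 to P3 and 4.46, 1.85, 2.83 and 7.21 in T1 to T4. P2 held 1 read. In NestinTK-GCV+ against NestinTK-PBS+ mice its log2 fold change was 1.39 (SE 0.63, unadjusted p = 0.0362, adjusted p = 0.269 by edgeR with Benjamini-Hochberg adjustment), and it ran from 0.85 without P2 to 2.27 without P1. With Flt1 and Slco1a4, 3 of the 10 genes had an unadjusted p under 0.05 in this contrast, against 16.1% of all genes, and edgeR called none, against 2.46% of all genes. Tek was called by limma-voom, and 1 of the 10 genes was called by edgeR without P1. The share of all genes called was not counted in those other fits.

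Pecam1 in the striatum stood at 24.7, 28.3, 21.1, 34.3 and 30.2 CPM in A1 to A5, 48.7, 25.8 and 43.2 in G1 to G3, 27.6, 30.5 and 33.6 in P1 to P3 and 28.9, 31.0, 34.2 and 44.0 in T1 to T4. The highest levels were in G1, T4 and G3, and A3 and A1 were the lowest. Against pooled controls its log2 fold change was -0.32 (SE 0.17, unadjusted p = 0.0652), the lowest p of the 10 genes in that comparison. Against NestinTK-GCV+ mice it was -0.49 (SE 0.21, unadjusted p = 0.0254, adjusted p = 0.203, edgeR with Benjamini-Hochberg), and -0.31 without G1. Its unadjusted p there was over 0.05 without A1, A3, G1 or G3. It was the 1 gene of 10 with an unadjusted p under 0.05 there, against 17.7% of all genes, and none was called, against 2.10%.

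Kdr in the striatum stood at 16.2, 18.5, 20.7, 19.0 and 31.2 CPM in A1 to A5, 25.3, 22.8 and 22.7 in G1 to G3, 23.4, 26.0 and 28.1 in P1 to P3 and 27.0, 13.3, 12.8 and 17.6 in T1 to T4. T2 and T3 were the 2 lowest libraries, while T1 lay within NestinTK-PBS+ mice. For NestinTK+PBS+ against NestinTK-PBS+ mice the log2 fold change was -0.54 (SE 0.25, unadjusted p = 0.0419, adjusted p = 0.772 by edgeR's test with Benjamini-Hochberg adjustment), and it ran from -0.82 without T1 to -0.39 without T3. Kdr and Slco1a4 were the 2 of 10 genes with an unadjusted p under 0.05 for the transgene alone, against 6.41% of all genes. No gene of the 10 was called, against 0.830%.

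The other 5 genes had no unadjusted p under 0.05 in any of these contrasts of the striatum. Cldn5 ranged over 6.53 to 8.81 CPM in ablated and 3.92 to 10.5 in control mice, from 18 to 48 reads, and Cdh5 over 2.33 to 5.67 and 2.83 to 6.41 CPM, from 7 to 26 reads. Abcb1a, with 19.6 to 25.8 and 20.7 to 34.3 CPM, had a log2 fold change of -0.24 (SE 0.15) against pooled controls, and Ly6c1 and Itm2a had 0.11 each (SE 0.19 and 0.18). Against NestinTK+PBS+ mice, 5 genes were higher and 5 lower in ablated mice with a median of -0.065, and none of the 10 passed either limit, which 1.35% and 10.1% of all genes did. In the interaction of genotype and treatment, Flt1 (0.63, SE 0.26, unadjusted p = 0.0239), Pecam1 (-0.67, SE 0.30, unadjusted p = 0.0358) and Slco1a4 were the 3 of 10 with an unadjusted p under 0.05, against 15.1% of all genes. None was called, against 3.28%, and the lowest adjusted p of the 10 genes was 0.247 (edgeR with Benjamini-Hochberg adjustment).

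**Figure D2:**
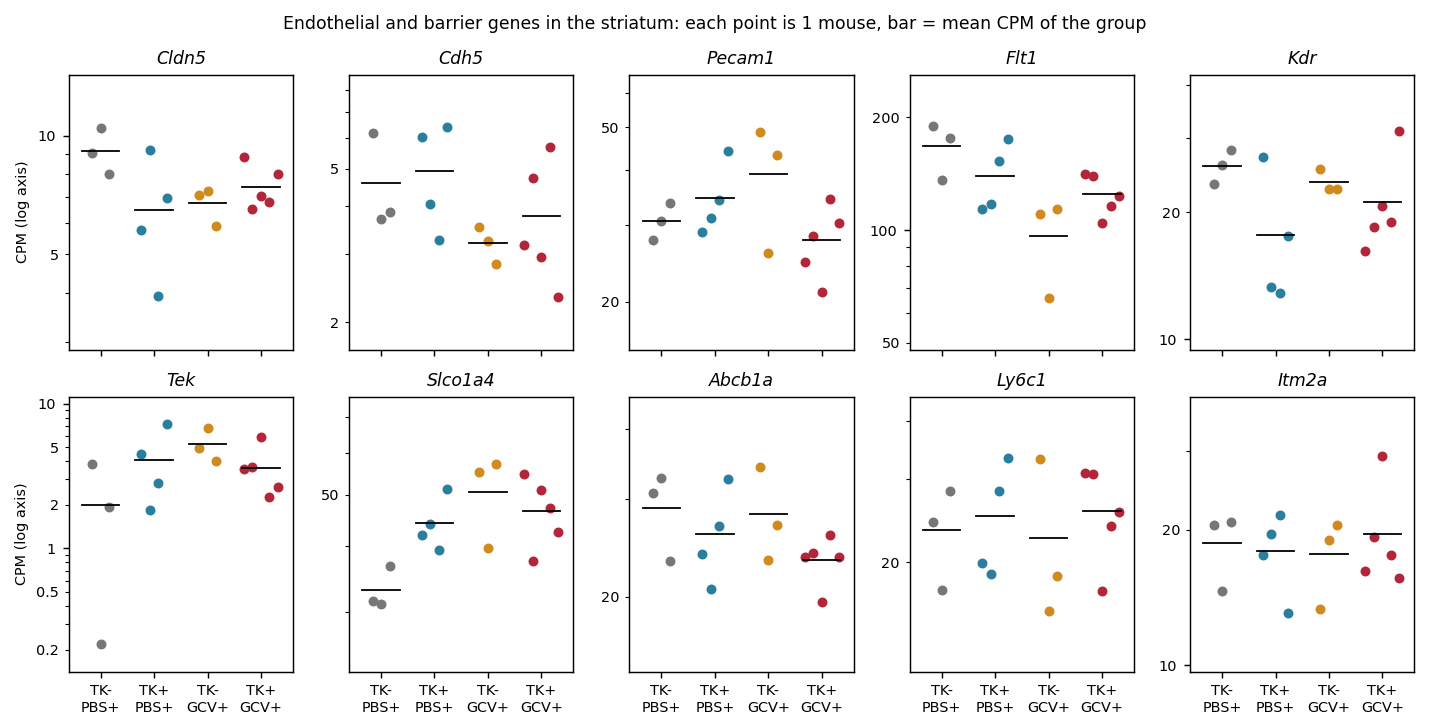
Level of each of the 10 genes in the striatum, in CPM on log axes, by group. Each point is 1 mouse and each bar the mean of its group. Flt1 is lower in all 3 TK-GCV+ mice than in all 3 TK-PBS+ mice, and the 3 TK-PBS+ mice hold the 3 lowest Slco1a4 values.

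**Figure D3:**
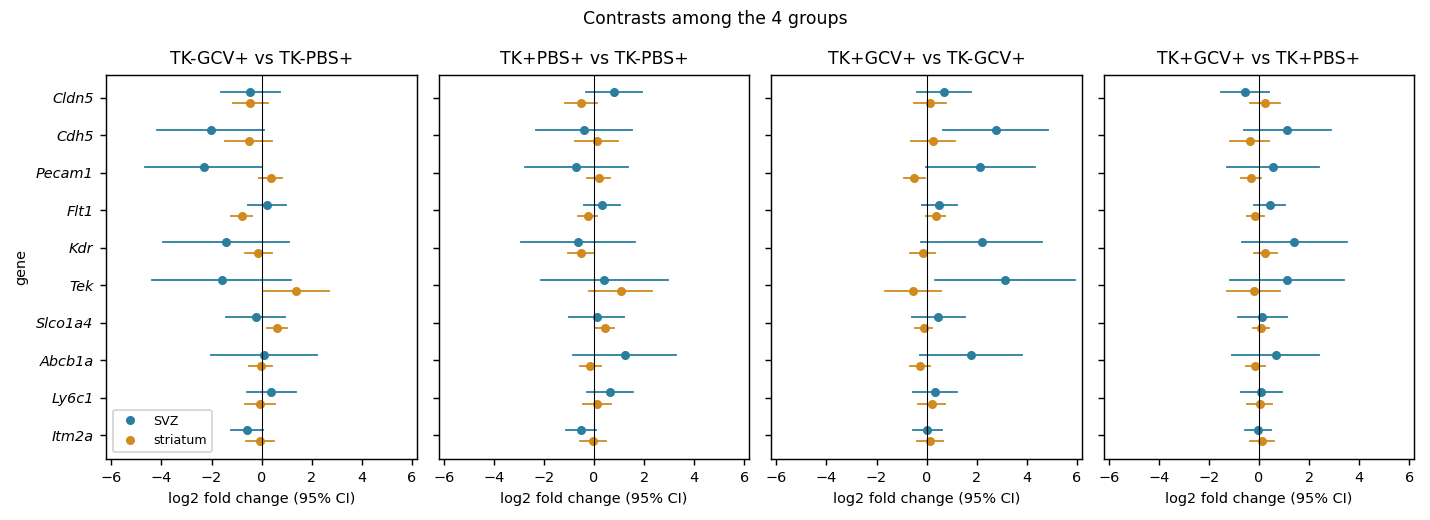
Log2 fold changes of the 10 genes with 95% intervals in 4 contrasts among the groups of genotype and treatment, for the SVZ (blue) and the striatum (orange). SVZ intervals are wide, and all 10 SVZ values lie above 0 for TK+GCV+ against TK-GCV+ mice, while in the striatum the Flt1 interval lies below 0 and the Slco1a4 interval above 0 for TK-GCV+ against TK-PBS+ mice.

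Since SVZ and striatum came from the same mice, the difference of the 2 effects was tested within mice with limma, on log2 CPM in SVZ minus log2 CPM in striatum. It rests on log2 values of single mice, so it is not the edgeR fold change in SVZ minus that in striatum. For Kdr those edgeR values were 1.35 and -0.053. In the SVZ, Kdr held 1 read in G1 and Cdh5 2 reads in G3. The ablation effect was larger in the SVZ by a median of 0.54 over the 10 genes and by -0.099 over all 14197 genes. Kdr and Cdh5 were the 2 of 10 genes with an unadjusted p under 0.05, a limit that 10.0% of all genes passed. For Kdr the difference was 2.09 (SE 0.87, 95% interval 0.23 to 3.95), with an unadjusted p of 0.0297 and an adjusted p of 0.464 (limma, Benjamini-Hochberg over all genes). That of Cdh5 was 1.74 (SE 0.65, 95% interval 0.35 to 3.14), with an unadjusted p of 0.0173 and an adjusted p of 0.404 from limma with the same adjustment. Tek at 1.70 (SE 0.98, 95% interval -0.38 to 3.78) and Abcb1a at 1.54 (SE 0.78, 95% interval -0.13 to 3.20) had intervals that included 0. Cldn5 and Slco1a4 were near 0 at 0.073 and 0.046 with SEs of 0.48 and 0.41. None of the 10 genes passed the adjusted limit.

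**Figure D4:**
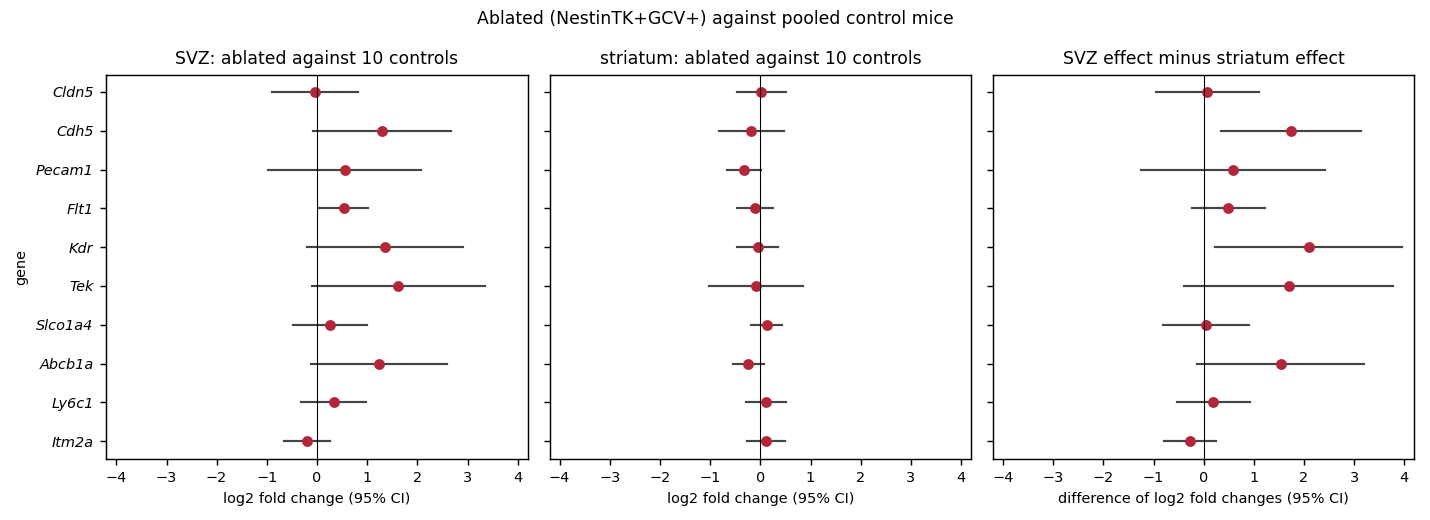
Log2 fold change of ablated against pooled control mice for the 10 genes in the SVZ (left) and the striatum (middle), and the within-mouse difference of the 2 effects (right), each with its 95% interval. The left and middle values come from edgeR and the right ones from limma on log2 CPM of single mice, so right is not left minus middle. The Flt1 interval in the SVZ and the Cdh5 and Kdr intervals of the difference lie above 0, and every striatum interval includes 0.

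The wider set of vascular genes did not move one way in the SVZ. Of all tested genes there, 9.81% had an unadjusted p under 0.05, so single genes at that limit are to be read against this share. Of 28 pan-endothelial genes listed beside the 10, 26 were tested, 12 had a higher and 14 a lower fitted level in ablated mice, and their median log2 fold change was -0.14 (range -2.02 to 1.22). Only Podxl, the sialomucin podocalyxin, had an unadjusted p under 0.05 among them, with 37.3 CPM against 22.1 CPM. The genes of highest level in this list were Tm4sf1 (16.4 against 40.3 CPM), Vwf (28.8 against 32.3 CPM) and Ptprb (32.5 against 26.2 CPM). Their log2 fold changes were -1.29 (SE 0.67), -0.17 (SE 0.57) and 0.31 (SE 0.34). For the 28 genes of barrier junctions, transporters and Wnt signalling, 16 were higher and 12 lower with a median of 0.062. Slc39a8, a zinc and manganese transporter (11.4 against 1.31 CPM), and Slco2b1, another organic anion transporter (22.8 against 8.86 CPM), were higher at an unadjusted p under 0.05 and Bsg, or basigin, was lower. Bsg held 299.5 ± 53.6 CPM in ablated (SD, n = 5) and 513 ± 321 CPM in control mice (n = 10), where the Ttr-rich P1, P2 and T1 held 662, 1069.6 and 1094 CPM and the other controls 239.7 to 430.4 CPM. In a fit without these 3 libraries, its log2 fold change was -0.14 in place of -0.78, with an unadjusted p of 0.414 by edgeR. Podxl and Slc39a8 then had an unadjusted p of 0.122 and 0.0703, and Slco2b1 one of 0.0286. The 18 vascular ligands and co-receptors had 9 higher and 9 lower, and Vegfb alone had an unadjusted p under 0.05, at 100.2 against 73.5 CPM. Of 11 genes of endothelial activation or fenestration, 7 were tested, 4 higher and 3 lower, none at that limit.

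Mural cells, which wrap the vessels, had 9 of 15 tested genes higher and 6 lower. Acta2, the smooth muscle actin, was the 1 vascular gene called in the SVZ. Of all tested genes, 1.59% were called and 9.81% had an unadjusted p under 0.05. Acta2 ranged over 0.124 to 13.7 CPM in ablated and 14.5 to 61.4 CPM in control mice, without overlap. The share of all genes separated in this way was not counted. Without the 3 libraries rich in Ttr, Acta2 was not called (log2 fold change -1.88, unadjusted p = 0.0124 by edgeR). Over all libraries the Acta2 log2 fold change was -1.96 (SE 0.62), with an adjusted p of 0.362 in edgeR's quasi-likelihood test after Benjamini-Hochberg adjustment. The pericyte genes Rgs5 and Vtn held 53.2 and 65.7 CPM in ablated against 41.8 and 67.3 CPM in control mice. Rgs5 ranged over 19.9 to 132.5 CPM in ablated and 24.6 to 61.5 CPM in control mice. Cspg4, of the same list, held 33.7 against 22.4 CPM. None of these had an unadjusted p under 0.05 by edgeR. Of 7 perivascular fibroblast genes, 2 were higher and 5 lower, and Dcn, or decorin, had an unadjusted p under 0.05 at 1.47 against 10.3 CPM, and of 0.135 without the Ttr-rich libraries. Perivascular macrophages had 1 higher and 2 lower of 3 tested genes.

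The same lists were tested in the striatum. Of all tested genes there, 10.5% had an unadjusted p under 0.05 and 0.694% were called, and the genes below are to be read against these shares. Of the 28 pan-endothelial genes, 13 were higher and 15 lower with a median of -0.057. Icam2, an endothelial adhesion molecule, was called lower: it ranged over 2.11 to 5.18 CPM in ablated and 4.00 to 11.9 CPM in control mice, with a log2 fold change of -1.03 (SE 0.30) and an adjusted p of 0.176 (edgeR, Benjamini-Hochberg). Adgrl4, Ptprb and Adgrf5 were lower and Mmrn2 higher at an unadjusted p under 0.05. Among 27 tested barrier genes 8 were higher and 19 lower, with a median of -0.08, and the 4 with an unadjusted p under 0.05 were all lower: the junction scaffold Tjp1, the transporters Slc16a1 and Slco1c1, and Bsg. Bsg ranged over 361 to 396 CPM in ablated and 403 to 531 CPM in control mice, without overlap. The share of all genes separated in this way was not counted. The Bsg log2 fold change was -0.32 (SE 0.093), with an adjusted p of 0.176 by edgeR with Benjamini-Hochberg adjustment. Of 17 tested ligands and co-receptors 8 were higher and 9 lower, Wnt7b lower at an unadjusted p under 0.05. Activation genes had 6 higher and 3 lower of 9, with Vcam1 lower at that limit, fibroblast genes 4 higher and 2 lower of 6, with Col1a2 higher, and macrophage genes 3 higher and 1 lower of 4. Mural genes had 8 higher and 6 lower of 14, and none passed an unadjusted p of 0.05. Oligodendrocyte markers moved with the groups too, with all 6 lower in ablated striatum, 5 of them at an unadjusted p under 0.05, over 1950.1 to 2566 CPM in ablated and 2081 to 5529.8 CPM in control mice. Of 6 astrocyte markers 5 were lower, 2 at that limit, and Gfap was called, at 4.65 ± 2.27 against 13.9 ± 7.09 CPM (SD, n = 5 and 10, log2 fold change -1.57, SE 0.37). Their part in these values was not tested.

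**Figure D5:**
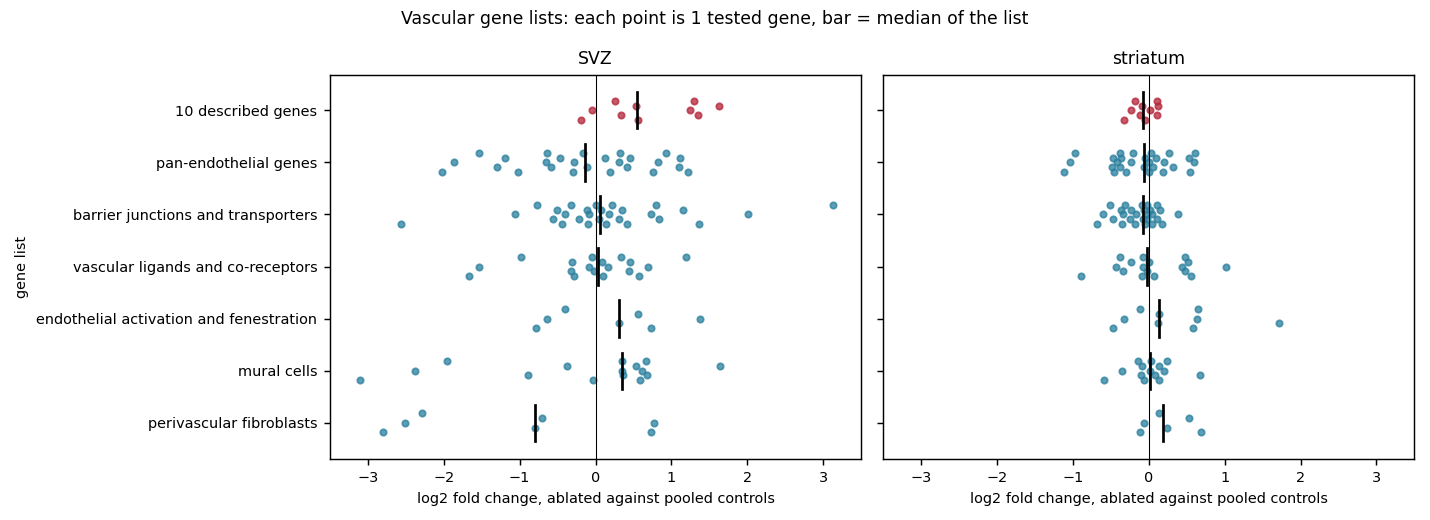
Log2 fold change of ablated against pooled control mice for every tested gene of 7 vascular lists in the SVZ (left) and the striatum (right). Each point is 1 gene and each bar the median of its list. The 10 described genes have a median of 0.54 in the SVZ, above that of the other lists shown, and -0.07 in the striatum.

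The genes whose level was most like that of the 10 genes over the 15 libraries were not on any of the vascular lists. Likeness was measured as Pearson's r with the mean of the 10 scaled log2 CPM values, as a description over libraries that differ in depth and makeup. In the SVZ the 5 highest were Gm43843 (0.84), Naa16 (0.82), Wbp1l (0.81), Ddx23 (0.80) and the mitochondrial mt-Nd2 (0.80). In the striatum they were Kcnab3 (0.86), Cerk (0.85), Crispld2 (0.83), Grsf1 (0.82) and Trp53bp2 (0.82). Between pairs of the 10 genes themselves, r reached at most 0.72 in the SVZ and 0.66 in the striatum.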

How the data were processed

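RNA of SVZ and striatum from 15 mice was sequenced. Per the labels and the study's methods, the authors trimmed reads with Trimmomatic, aligned them to mm10 with STAR 2.5.3a and counted reads per gene with featureCounts, and they deposited raw counts. The deposited counts were used as they are, with every column matched to a mouse by its name. The strand setting is not given in the sources used here.

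Genes with CPM over 1 in at least 3 libraries were kept. Each tissue was fitted apart with edgeR 4.0.16 (R 4.3.3): TMM factors, quasi-likelihood test, Benjamini-Hochberg adjustment over all tested genes. One fit compared ablated with pooled control mice and another held the 4 group means. The study's thresholds defined a called gene, with a nominal p of at most 0.01 together with a 2-fold difference or more. Levels are CPM, and log2 CPM used a prior count of 2. Tissue differences within mice were tested with limma 3.58.1. The methods were tested on simulated data. The 10 genes and the marker lists were chosen with earlier results of these data known. Outside the 10 genes, the rule for naming took close copies, called genes and the 3 of highest level per list, and the 5 most alike over libraries. Not all genes that this rule took are named in the text. Other list genes with an unadjusted p under 0.05 (Podxl, Slc39a8, Slco2b1, Adgrl4, Ptprb, Adgrf5, Mmrn2, Tjp1, Slc16a1 and Slco1c1 among them) were named after their values were seen. Alternatives were DESeq2 1.42.0, limma-voom, no filter, other controls, covariates and leaving out libraries. At these totals a count of 0 allows up to 3 reads, for counting error only.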

Additional observations from a re-analysis of the deposited data

Results flagged for a closer look

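In 60 groups of 4 to 10 mice, over the 10 genes in both tissues, the highest or lowest mouse was tested against the others by Dixon's ratio on log2 CPM (prior count 2), the gap to the nearest mouse divided by the range of the group. It exceeded the 95% critical value in 6 groups. The groups of each gene were the ablated mice, the NestinTK+PBS+ mice and the 10 pooled controls. The NestinTK+PBS+ mice are thus also in the pool, which mixes genotypes and treatments. Chance gives about 1 in 20 for a uniform group, a rate that need not hold for the pool. The ratios on the log2 scale follow, each beside the levels in CPM.

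G3 was the lowest SVZ control for Cldn5, at 6.52 CPM against 23.5 to 88.6 in the other controls (ratio 0.488), and for Cdh5, at 0.152 against 1.98 to 13.2 CPM (ratio 0.511). For Itm2a in the SVZ, A2 was the lowest ablated mouse at 46.4 CPM against 72.5 to 80.2 (ratio 0.815), and P3 was the highest control at 152 CPM against 53.9 to 90.8 (ratio 0.497). In the striatum, G2 was the lowest control for Flt1 at 65.8 CPM against 110.1 to 189 (ratio 0.486). P2 was the lowest striatum control for Tek, with 1 read or 0.218 CPM against 1.85 to 7.21 CPM (ratio 0.492).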

How the results depend on the processing

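The SVZ median over the 10 genes was 0.32 to 0.69 when each mouse was left out, and 1.23 with NestinTK-GCV+ mice as the only controls. DESeq2 and limma-voom called 0 of the 10 genes against pooled controls in both tissues. Of the 10 SVZ genes, 1 had an unadjusted p under 0.05, against 9.81% of all genes. This count was 3 by DESeq2 and limma-voom, and 0 with NestinTK+PBS+ mice as the only controls or the mitochondrial share as covariate. It was 4 with control groups weighted equally, 2 without libraries with Ttr over 1%, and 0 to 3 without single mice. The share of all genes at that limit was not counted in these alternatives, so their counts cannot be set against it. All SVZ genes called numbered 260, and 493 by DESeq2, 171 by limma-voom, 1342 with no filter (median of all genes -0.17), 74 or 158 with NestinTK-GCV+ or NestinTK+PBS+ mice as the only controls, and 158 without libraries rich in Ttr. In the striatum 107 genes were called, and 190 by limma-voom, 330 with no filter, 365 or 189 with those controls, and 175 with mouse number series (34 or 40) as covariate.

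SVZ Cldn5 turned to 0.056 by limma-voom, 0.68 against NestinTK-GCV+ mice and 0.12 with equal weights, Itm2a to 0.032 against NestinTK-GCV+ mice, and Ly6c1 to -0.16 with the mitochondrial covariate. In the striatum, Tek turned to 0.22 by limma-voom and 0.032 with equal weights. Against NestinTK-GCV+ mice, striatal Flt1 was 0.35, Cdh5 0.22 and Slco1a4 -0.14, and Kdr was 0.24 against NestinTK+PBS+ mice. With the number series, Flt1 was 0.093, Kdr 0.024 and Slco1a4 -0.0085. These members numbered 2 past an unadjusted p of 0.05 in striatum against NestinTK-GCV+ mice as the only controls and 1 with the mitochondrial covariate. The share of all genes at that limit was not counted in those fits. Without single mice, SVZ Cldn5 ran from -0.26 to 0.12 and Slco1a4 from -0.023 to 0.44, and in the striatum Cldn5 ran from -0.068 to 0.089, Itm2a from -0.074 to 0.18, Tek from -0.33 to 0.061 and Kdr from -0.24 to 0.028.

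Among the group contrasts in the SVZ, limma-voom called 2 genes (Tek and Cdh5) for ablated against NestinTK-GCV+ mice, and 4 had an unadjusted p under 0.05 with no filter. For NestinTK-GCV+ against NestinTK-PBS+ mice 1 did by limma-voom and 1 with no filter, and for the interaction 3 and 2. In the striatum, 2 did for ablated against NestinTK-GCV+ mice by limma-voom and 2 with no filter, limma-voom called 1 gene (Tek) for NestinTK-GCV+ against NestinTK-PBS+ mice, and 4 had an unadjusted p under 0.05 by limma-voom for the transgene alone. Without single mice, the number called ran from 0 to 1 in ablated against NestinTK-GCV+ SVZ, and from 0 to 1 for GCV alone and the interaction in both tissues. The number with an unadjusted p under 0.05 ran from 1 to 4, 0 to 3, 0 to 1 and 0 to 3 in the SVZ (ablated against NestinTK-GCV+, GCV alone, transgene alone, interaction). In the striatum it ran from 0 to 1 against pooled controls, 0 to 2 against NestinTK-GCV+, 0 to 1 against NestinTK+PBS+, 0 to 2 for the transgene alone and 1 to 4 for the interaction, and from 1 to 3 for the tissue difference. Medians ran from -0.68 to -0.087 for GCV alone and 0.24 to 0.99 for the interaction in the SVZ, and from -0.043 to 0.26 for the interaction in the striatum. The cause was not tested. For the counts in this paragraph the share of all genes was counted in the main fits only, so those of the alternatives cannot be set against it. No paired analysis was possible because the groups share no mice and the replicate numbers only follow the order of deposit. Mice were paired with themselves only for the tissue difference. Tek, Cdh5 and Kdr held 1 or 2 reads in some SVZ libraries, and such depth gives no firm level.
The fit of list genes without Ttr-rich libraries was chosen after seeing the data.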
